A study of Mus musculus with 4 samples.

Results

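The cells described here are Slc17a8-expressing GABAergic neurons of the mouse bed nucleus of the stria terminalis (BNST), which belongs to the extended amygdala. Slc17a8 encodes the vesicular glutamate transporter VGLUT3, and the cells were picked by the counts themselves. A barcode had to hold 400 genes or more, with mitochondrial genes making up no more than 10% of its counts. It was called a neuron when the 5 neuronal genes Snap25, Syt1, Stmn2, Snhg11 and Meg3 made up at least 0.6% of its counts, and GABAergic with at least 1 count of Gad1, Gad2 or Slc32a1. A GABAergic neuron was included when it held at least 1 count of Slc17a8 and at least 2 counts of Slc17a8, A730046J19Rik and Prok2 together, the 3 gate genes. The rule found 101 cells among 2283 GABAergic neurons, 2489 neurons and 4239 kept cells, out of 10200 barcodes listed. They are called Slc17a8 neurons below, and the remaining 2182 GABAergic neurons served as the comparison.

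The cells came from 4 Drop-seq libraries, each made from BNST punches pooled from 6 wildtype male mice of the C57BL/6J strain (24 mice if no mouse was in 2 pools, 1 group with no treatment named, n = 4 libraries). Mouse age is not given in the labels. In Drop-seq, droplets pair single cells with barcoded beads, and a unique molecular identifier (UMI) tags every RNA molecule caught, so the counts are UMIs. Every comparison below set 2 kinds of cell side by side within the same libraries, and cells of a library are not replicates. The spread between libraries is that between pools and also includes any difference between library preparations.

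Vesicular glutamate transporters load glutamate into synaptic vesicles, as the product of Slc32a1 does for GABA, the transmitter made by the enzymes encoded by Gad1 and Gad2. VGLUT1 and VGLUT2, encoded by Slc17a7 and Slc17a6, mark the classical glutamatergic neurons. VGLUT3 instead is known from cells that use another transmitter, among them serotonergic neurons, striatal cholinergic interneurons and basket cells of cortex and hippocampus that contain cholecystokinin. Of the other genes in the rule or among the listed markers, Prok2 encodes the secreted peptide prokineticin 2, Nts the precursor of the neuropeptide neurotensin, and Lmo4 a LIM-only transcriptional cofactor.

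Library 1 held 18 Slc17a8 neurons among 721 GABAergic neurons, a share of 2.50% (exact 95% binomial interval 1.49 to 3.92%). In library 2 the count was 34 of 471, or 7.22% (5.05 to 9.94%). Library 3 gave 17 of 401, or 4.24% (2.49 to 6.70%), and library 4 gave 32 of 690, or 4.64% (3.19 to 6.48%). The mean was 4.65% ± 1.95 (SD, n = 4), and the intervals, which cover counting error only, did not overlap between libraries 1 and 2. When cells of at least 2000 UMIs were thinned to that depth before the rule was applied, the mean share was 3.54%. Shallower cells were left out of it, namely 13 Slc17a8 neurons and 665 other GABAergic neurons, so the set of cells differs from that of the main share. With any single Slc17a8 UMI as the rule the mean share was 5.47%.

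The Slc17a8 neurons held 467637 UMIs and the comparison cells 8566671. The median was 4203 UMIs and 2272 genes per Slc17a8 neuron, against 3318 UMIs and 1937 genes in the other GABAergic neurons, and the Slc17a8 neurons were the deeper class in each library. No barcode among the kept cells occurred in more than 1 library. Scrublet, a doublet caller, marked 58 of the 4239 kept cells (1.37%), of which 1 was a Slc17a8 neuron. Doublets were left in, and their removal was run as an alternative. Oligodendrocyte RNA differed between libraries. The 10 oligodendrocyte markers summed to 180, 167, 3865 and 549 CPM (the UMIs of a gene scaled to equal totals of the summed cells) in the Slc17a8 neurons of libraries 1 to 4, and to between 283 and 1213 CPM in the comparison cells. Of the 498 oligodendrocyte UMIs in Slc17a8 neurons, 78.3% lay in 2 cells, and 365 of them in a single cell of library 3. Mog, a myelin gene, was at 0. For astrocytes, 6 of 10 markers were at 0 in Slc17a8 neurons (summed level 144 to 333 CPM per library), for microglia 7 of 8 (0 to 9.83 CPM) and for endothelial and mural cells 4 of 8 (207 to 522 CPM). None of the 12 tested genes from these lists and from the ependymal and precursor lists passed the test described below.

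Slc17a8 lies on chromosome 10, minus strand, from 89574020 to 89621253 (GRCm38), Nts on the same chromosome from 102481756 to 102490486, and Lmo4 on chromosome 3 from 144188530 to 144205220. Prok2 lies on chromosome 6 from 99711299 to 99726392, all 4 on the minus strand. A730046J19Rik, a protein-coding gene by the annotation, lies on the plus strand of chromosome X from 144153695 to 144166274. The promoters of Slc17a8 and Nts are shown because the first gene defines the cells and the second is their listed peptide marker. Each runs from 250 bases before to 50 bases after the annotated start (RefSeq, GRCm38.p6), at chr10:89621200-89621499 and chr10:102490369-102490668, both on the minus strand. Capitals mark matches to TGACAG, the core motif of MEIS factors, or to TGANTCA, the motif of AP-1 factors such as Fos.
Slc17a8: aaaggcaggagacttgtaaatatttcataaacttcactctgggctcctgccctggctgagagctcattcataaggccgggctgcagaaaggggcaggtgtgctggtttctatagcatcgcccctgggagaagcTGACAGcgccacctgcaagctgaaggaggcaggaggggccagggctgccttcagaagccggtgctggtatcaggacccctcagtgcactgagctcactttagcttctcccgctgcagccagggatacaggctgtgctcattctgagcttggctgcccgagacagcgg
Nts: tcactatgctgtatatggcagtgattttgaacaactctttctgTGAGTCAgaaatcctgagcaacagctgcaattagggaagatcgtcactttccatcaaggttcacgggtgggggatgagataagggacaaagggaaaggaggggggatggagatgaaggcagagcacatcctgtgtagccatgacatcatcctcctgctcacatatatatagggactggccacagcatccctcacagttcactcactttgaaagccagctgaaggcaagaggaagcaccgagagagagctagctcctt
The Slc17a8 promoter shown held 1 TGACAG, which starts 117 bases before the start site, and no TGANTCA. A second annotated Slc17a8 promoter, at chr10:89599766-89600065 on the same strand, held neither. The Nts promoter held 1 TGANTCA, 207 bases before its start, and no TGACAG. On either strand, TGACAG occurs in 19.2% of the 32851 annotated promoters of this length and TGANTCA in 7.81%. The cyclic AMP response element TGACGTCA, found in 1.79% of promoters, was in none of the 13 promoters read for 10 genes of this report. The 3 motifs share the letters TGA and were counted independently.

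The genes that chose or mark the cells are given as values, with no test. Slc17a8 was at 782, 751, 1269 and 1261 CPM in the Slc17a8 neurons of libraries 1 to 4 and between 1.95 and 2.65 CPM in the other GABAergic neurons. These cells held 464 of the 506 Slc17a8 UMIs of all kept cells (91.7%), with a median of 3 and at most 32 per cell. Only 7 of 1750 non-neuronal cells had a Slc17a8 UMI. A730046J19Rik was at 196 ± 52.8 against 8.79 ± 0.92 CPM (SD, n = 4) and was detected in 51 of the 101 cells. Prok2 was sparse, at 40.0 ± 25.5 against 3.93 ± 1.27 CPM, with 18 UMIs in 12 cells. A further 45 cells had neither of these and were included by Slc17a8 alone.

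Lmo4, which the rule did not use, was at 980, 1169, 983 and 991 CPM in Slc17a8 neurons against 202, 189, 190 and 181 CPM in the others, and 95 of 101 cells had a UMI. Nts was at 1484, 939, 718 and 1594 CPM against 268, 327, 143 and 333 CPM. Both are among the listed markers of the group and so carry no test, and for both every library of Slc17a8 neurons lay above every library of the others. The rule asked for a UMI of Gad1, Gad2 or Slc32a1, so the values of these genes describe the cells chosen and carry no test. Gad2 had a UMI in 100 of 101 Slc17a8 neurons and 1794 ± 48.0 CPM, against 2142 ± 216 CPM in the others. Gad1 was at 469 ± 51.0 against 674 ± 79.5 CPM, and Slc32a1, which overlaps an exon of a gene on the opposite strand, at 407 ± 49.9 against 469 ± 47.5 CPM. All 3 were detected together in 59 cells.

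**Figure D1:**
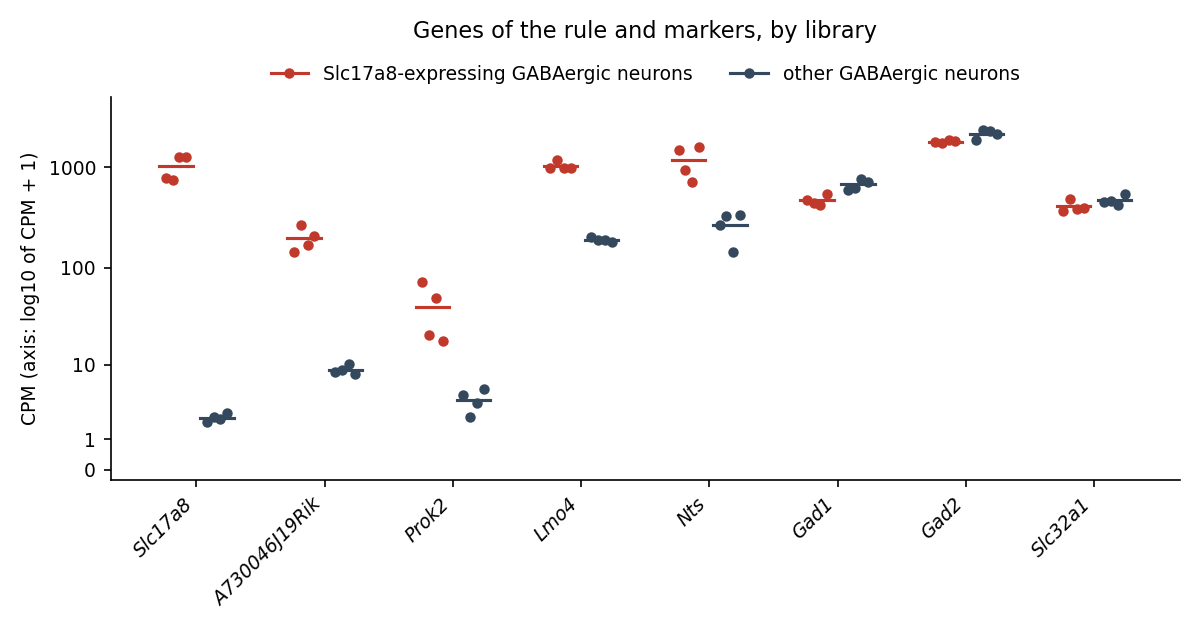
Level of each gene in CPM (vertical axis, log10 of CPM + 1) in the 4 libraries, for Slc17a8-expressing GABAergic neurons (red) and the other GABAergic neurons (dark). Points are libraries and lines are means. Slc17a8, A730046J19Rik, Prok2, Lmo4 and Nts separate without overlap, while Gad2 and Slc32a1 overlap.

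Cells at the edge of the rule resembled those well inside it in some genes and not in others. The 28 neurons with exactly 2 UMIs of the gate genes had 780 CPM of Lmo4 and 890 CPM of Nts, and the 39 with 6 or more had 1130 and 1352 CPM. Just outside the rule, 19 GABAergic neurons had 1 Slc17a8 UMI and no other gate UMI. They had 626 CPM of Lmo4, 264 CPM of Nts and 890 CPM of Calb2. Another 18 had at least 2 UMIs of the gate genes but none of Slc17a8, with 362 CPM of Lmo4 and 1002 CPM of Nts. These are sums over few cells and were not tested.

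To find which other genes separated the cells from the remaining GABAergic neurons, the UMIs of each class were added up within each library and compared by edgeR's quasi-likelihood test with library as a block. Of 8580 genes tested, 338 passed a Benjamini-Hochberg adjusted p of 0.05 (3.94%). In Slc17a8 neurons 140 were higher (1.63% of genes tested) and 198 lower (2.31%), and 327 of the 338 moved the same way in all 4 libraries. Genes used by the rule and the listed markers were left out of these counts. Of the 198 lower genes, 25 had 0 UMIs in Slc17a8 neurons. Such genes entered the test through the comparison cells alone and could only come out lower. Without library 3, where oligodendrocyte RNA stood apart, 93 were higher and 142 lower, and without library 4 the counts were 64 and 99. With only cells of at most 1 oligodendrocyte UMI they were 68 and 120, over the 3 libraries that then had enough cells.

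The 12 largest rises, among genes changed alike in all libraries and with at least 30 CPM, included the transcription factor genes Barx2, Tshz3, Zfp503 and Pbx3. Barx2, a homeobox factor, was at 71.9, 62.6, 19.7 and 27.0 CPM in Slc17a8 neurons and at 3.60 to 6.98 CPM in the others, a log2 difference of 3.12 (SE 0.53, adjusted p = 4.65e-05). Tshz3, a zinc finger factor, was at 45 to 69.6 against 6.37 to 14.4 CPM (log2 difference 2.64). Zfp503, a zinc finger factor of striatal development, rose by a log2 difference of 1.98, and Pbx3, a homeobox partner of MEIS factors, was at 205 ± 48.9 against 53.1 ± 6.58 CPM (1.91, SE 0.22, adjusted p = 4.69e-09). Vcan, which encodes the matrix proteoglycan versican, showed a log2 difference of 2.71, with a wide range of 18.0 to 167 CPM between libraries. The transcript Gm5607 rose by 2.17 on the log2 scale. The ranges of the 2 kinds of cell did not overlap for any of these 6 genes.

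Calb2, which encodes the calcium-binding protein calretinin, had the highest level among these 12 rises. It was at 782, 661, 393 and 631 CPM in Slc17a8 neurons and at 149, 138, 150 and 124 CPM in the others. The lowest library of the former was above the highest of the latter (log2 difference 2.15, SE 0.13, adjusted p = 1.55e-17). Oprk1, the kappa opioid receptor gene, was at 62.9, 83.5, 177 and 144 CPM against 19.9 to 39.1 CPM (1.92, SE 0.29, adjusted p = 5.19e-06). Glra2, a glycine receptor subunit gene, was at 227 ± 33.4 against 65.5 ± 9.27 CPM (1.80, adjusted p = 1.50e-09). The rises also held Wls, needed for Wnt secretion, at 2.01, the ligand gene Wnt7a at 1.82 and Tpbg, a membrane glycoprotein gene that overlaps an opposite-strand exon, at 1.81 on the log2 scale. The calls of the Wnt genes rested on single libraries. Without library 1 the adjusted p was 0.0895 for Wls and 0.0728 for Wnt7a, and without library 4 it was 0.114 and 0.0626.

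Of the 12 largest falls, 6 were on the lists of neuropeptides or of other neuron groups, namely Npy, Gal, Avp, Cbln2, Tac2 and Sst. No UMI of Npy, Gal, Avp, Igfbp4, Cbln2, Crhbp, Ttc39b or Gstm6 was found among the 467637 UMIs of Slc17a8 neurons. A count of 0 allows up to 3 UMIs, or 6.42 CPM over the summed cells. Against that limit Npy (neuropeptide Y) was at least 98.5-fold lower, Gal (galanin) at least 37.2-fold and Avp (vasopressin) at least 17.5-fold lower. Igfbp4 was at least 8.72-fold lower and Cbln2 at least 6.90-fold lower. These limits count UMIs as independent, and UMIs of a gene can gather in few cells. Among the 2182 comparison cells, Avp UMIs lay in 24, Gal UMIs in 96 and Npy UMIs in 206. For Igfbp4 the number was 153 cells, for Cbln2 176, for Tac2 238 and for Sst 288. Whether the share of cells with a UMI of these genes was lower in Slc17a8 neurons was not tested. Tac2, the neurokinin B precursor gene, had 1 UMI and was 181-fold lower in the summed counts (95% interval 32.5 to 7154). For Dlk1, an imprinted gene with 2 UMIs, the ratio was 85.0-fold (23.5 to 702.4), and for Dlx1, a homeobox factor of forebrain GABAergic neurons, 71.0-fold (12.7 to 2805). Sst, the somatostatin gene, was at 27.0, 13.9, 0 and 9.01 CPM against 965, 436, 402 and 1846 CPM, and fell by 6.10 on the log2 scale (SE 0.25, adjusted p = 1.59e-24).

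**Figure D2:**
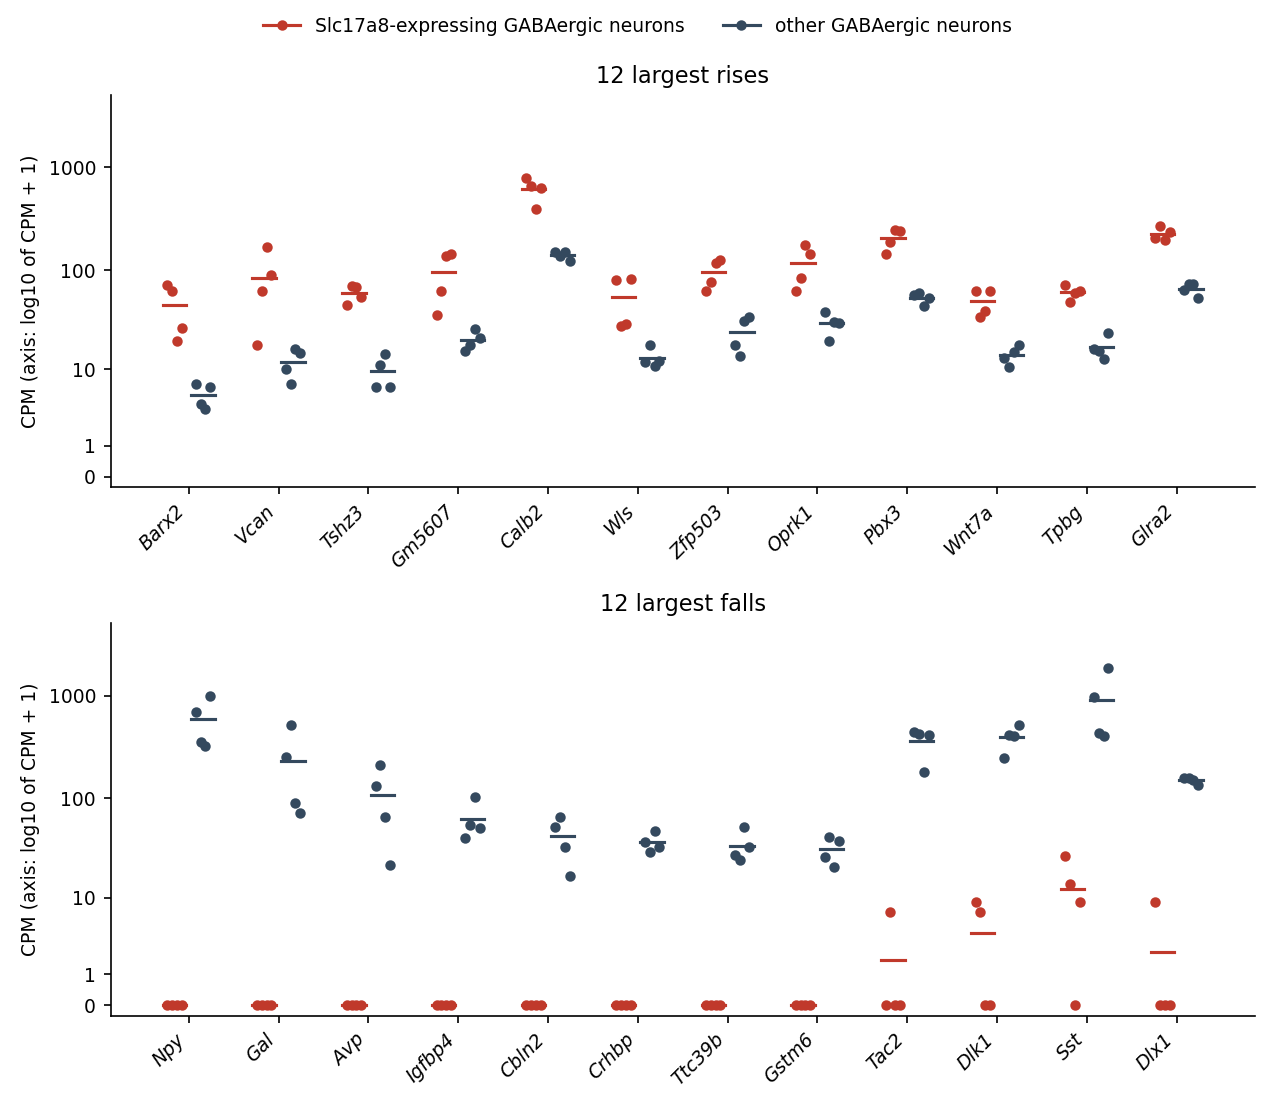
Levels in CPM (vertical axis, log10 of CPM + 1) of the 12 largest rises and the 12 largest falls, per library (points) with means (lines), in Slc17a8-expressing GABAergic neurons (red) and other GABAergic neurons (dark). The ranges of the 2 kinds of cell do not overlap for any of these genes, and 8 of the falls are at 0 in all libraries.

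Of all genes tested, 2.31% were lower and 1.63% higher in Slc17a8 neurons. The neuropeptide list also holds Cbln2, Cbln4 and secretory granule genes such as Scg2 and Chga. Of its 29 genes found in the data, 18 were tested. Of these 18, 14 were lower and none was higher (median log2 difference -2.74, against -0.01 over all genes tested). However, 5 of the 18 had 0 UMIs in Slc17a8 neurons, entered the test through the comparison cells alone and could only come out lower. The count says nothing of the list genes that were not tested. Nts stood outside this count as a listed marker. Cck (cholecystokinin) was at 53.9, 0, 0 and 9.01 CPM against 132 to 341 CPM, and all 7 UMIs came from 2 cells. Tac1, the substance P precursor gene, was at 45.6 ± 26.3 against 297 ± 73.5 CPM (adjusted p = 5.82e-12). Crh, the corticotropin-releasing hormone gene, was at 153 CPM in library 1 and at 0 to 20.9 CPM in the others, with 20 UMIs in 4 cells, against 224 to 361 CPM in the comparison cells. The secretory granule gene Scg2 fell by 0.63 on the log2 scale (adjusted p = 3.36e-06). The falls of Pdyn (dynorphin), Chga and Cbln4 lost their call without library 4, with adjusted p of 0.0747, 0.113 and 0.0519. Pdyn and Chga also lost it without library 2 (0.0988 and 0.137), Chga without library 3 (0.0914) and Cbln4 without library 1 (0.0520).

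Pnoc, the prepronociceptin gene that the study is about, was among the lower peptide genes. It was at 18.0, 62.6, 0 and 0 CPM in Slc17a8 neurons, from 11 UMIs in 4 cells, and at 171, 158, 139 and 146 CPM in the other GABAergic neurons (log2 difference -2.73, SE 0.36, adjusted p = 2.63e-07). Oprl1, which encodes the nociceptin receptor, was at 78.8 ± 18.7 against 60.7 ± 9.48 CPM, and its log2 difference of 0.37 did not pass (adjusted p = 0.633). Penk, the enkephalin precursor gene, was, with Cartpt, Vgf and Chgb, among the 4 tested genes of the neuropeptide list that did not pass. It was at 1043, 702.8, 659 and 612.5 CPM against 557, 701.9, 573 and 947 CPM, with overlapping ranges. Its log2 difference was 0.14 (SE 0.12, adjusted p = 0.742), and it turned to -0.16 without library 1 and to -0.62 (adjusted p = 0.0307) with a mitochondrial limit of 5%. With cells of at most 1 oligodendrocyte UMI it was -0.64 (adjusted p = 0.00185).

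Receptors for the cells' own marker peptides were low. Prokr1 and Prokr2, the prokineticin receptor genes, and Ntsr2, a neurotensin receptor gene, had 0 UMIs in Slc17a8 neurons and at most 4.67 CPM in any library of the others, so no difference was detectable at this depth. Ntsr1 was at 11.1 ± 9.33 against 12.6 ± 1.18 CPM (adjusted p = 0.952). Of 10 peptide receptor and binding genes tested, Oprk1 rose and Crhbp, which encodes the binding protein of corticotropin-releasing hormone, fell. Of all genes tested, 3.94% passed in either direction. Among 13 monoamine, acetylcholine and cannabinoid receptor genes, Drd1a, the older symbol of the dopamine D1 receptor gene Drd1, was at 45, 41.7, 88.5 and 108 CPM against 16.4 to 31 CPM. Its log2 difference of 1.5 (adjusted p = 0.00462) was 1.19 without library 4 (adjusted p = 0.179). No Drd2 UMI was found in Slc17a8 neurons, which allows up to 6.42 CPM. The Drd2 level of the other GABAergic neurons is not given here, so this is no difference between the 2 kinds of cell. Adra1a, an alpha-1 adrenergic receptor gene, had 2 UMIs and a 6.85-fold lower level (1.88 to 56.9), and its call was lost when any library was left out (adjusted p 0.0619 to 0.138).

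Of 9 transmitter transporter and enzyme genes tested, 2 were lower, among them Slc17a6, and none was higher, where 2.31% of all genes tested were lower. Slc17a6 had 0 UMIs in Slc17a8 neurons and 13.7 to 30.7 CPM in the others, at least 3.71-fold lower against the limit of 3 UMIs. Its call was lost without library 1, 2 or 4 (adjusted p = 0.0738, 0.0585 and 0.0601). The Slc17a6 UMIs of the others lay in 42 of 2182 cells, so the fall rested on a small part of the comparison cells. Whether the share of cells with a Slc17a6 UMI was lower in Slc17a8 neurons was not tested. Slc17a7 also had 0 UMIs, but was at most 1.06 CPM in the others. Of 16 genes on a list of VGLUT3 interneurons of cortex and hippocampus, named for the cells known from those regions, 9 were tested. They gave 5 falls (Npy, Tac2, Cck, Calb1 and Cxcl14) and no rise (median log2 difference -2.65). Cnr1, Tnfaip8l3, Adarb2 and Nr2f2 did not pass. Npy and Tac2 are peptide genes of other interneurons on that list. Calb1, the calbindin gene, was at 53.4 ± 36.4 against 350 ± 39.8 CPM (adjusted p = 7.39e-12). Cxcl14, at 0 UMIs, lost its call when any library was left out (adjusted p 0.0770 to 0.132).

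All 4 tested factors of the medial ganglionic eminence, the embryonic source of many interneurons, were lower, among them Lhx6 with 1 UMI (22.8-fold lower, 95% interval 4.07 to 903), Lhx8 with 1 UMI (14.3-fold, 2.54 to 567) and Satb1 with 3 UMIs. Lhx6 kept its call without each library. Lhx8 lost it without library 4 (adjusted p = 0.0626), and Satb1 when any 1 library was left out (0.0634 to 0.201). Forebrain GABAergic factors gave 7 falls among 9 tested (median log2 difference -2.0) and no rise, where 2.31% of all genes tested were lower. Zic1, which overlaps an opposite-strand exon, had 1 UMI (30.7-fold lower, 5.48 to 1214), and Zfhx3 was at 20.0 ± 22.8 against 131 ± 32.6 CPM (adjusted p = 2.48e-07). Zfhx4 fell by 1.47 on the log2 scale. The falls of Dlx6 and Dlx6os1 were lost without library 4 (adjusted p = 0.283 and 0.195). Both were also lost without library 1 (0.0868 and 0.106) or 3 (0.0914 and 0.0957), and that of Dlx6 without library 2 (0.0876).

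Among 23 tested genes of the lateral ganglionic eminence, which forms striatal and related projection neurons, 6 were higher and 5 lower (median log2 difference -0.86). Over all genes tested, 1.63% were higher and 2.31% lower. Meis2, a homeobox factor, was at 1052, 758, 767 and 928 CPM in Slc17a8 neurons and at 324, 437, 423 and 455 CPM in the others, with no overlap (log2 difference 1.10, SE 0.11, adjusted p = 2.42e-10). Pbx3, Zfp503 and Drd1a are described above. A smaller rise in Tshz2 (0.58), which overlaps opposite-strand exons, was lost when any 1 library was left out (adjusted p 0.0613 to 0.232). The falls held genes of mature striatal spiny neurons. Ppp1r1b, which encodes DARPP-32 and overlaps an opposite-strand exon, had 3 UMIs (14.0-fold lower, 4.76 to 67.8). Crym was at 7.47 ± 9.89 against 61.8 ± 18.8 CPM (adjusted p = 0.0542 without library 4), Rgs9 fell by 1.58 (0.0815 without library 2, 0.118 without library 3), and Sp9 had 0 UMIs (0.0519 without library 4). Ebf1 had 1 UMI and lost its call when any 1 library was left out (0.0736 to 0.187). Foxp1, Foxp2, Six3 and Tshz1 were among the 12 genes of the list that did not pass.

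The LIM list gave 2 falls of 7 (2.31% of all genes tested were lower), the same Lhx6 and Lhx8. Lmo1, Lmo3, Ldb1, Ldb2 and Isl1 did not pass. Of 4 tested factors of the caudal ganglionic eminence, Nr2f1 rose by 0.85 and Prox1, with 1 UMI, was lower (14.8-fold, 2.64 to 589). Both calls depended on single libraries (adjusted p for Nr2f1 0.148 without library 2 and 0.118 without library 3, and for Prox1 0.114 without library 3). Markers of other neuron groups of this region, a list drawn up with earlier results of these libraries known, were lower for 13 of 17 tested genes. Genes listed for being high in other groups were bound to be mostly lower here, so the count is a description and no separate result. Most of these lower genes are also counted in the lists above. The lower genes include Prkcd, with 2 UMIs in 1 cell, whose call was lost without library 4 (adjusted p = 0.136).

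Of 31 glutamate and GABA receptor genes tested, 3 were higher and 2 lower (median log2 difference 0.01), where 3.94% of all genes tested passed in either direction. Gabrq, the GABA-A receptor theta subunit gene, was at 171, 188, 197 and 189 CPM against 50.8, 78.2, 57.6 and 66.3 CPM (log2 difference 1.54, SE 0.21, adjusted p = 4.17e-07). Gabra3, the alpha 3 subunit gene, was at 350 ± 92.4 against 211.5 ± 32.3 CPM (0.72, adjusted p = 0.09 without library 4). Gria3, an AMPA receptor subunit gene, was at 98.3 ± 35.4 against 328 ± 85.7 CPM (-1.71, SE 0.19, adjusted p = 1.50e-09). Among 44 ion channel genes, Cacna2d3 (1.10) and Kcnab1 (0.86) were higher, and Kcnip1 (-2.58), Kcnh1 (-1.87), Kcna1 (-0.99) and Cacna2d2 (-0.88) were lower on the log2 scale. None of these 6 calls held without every library. Without library 4 the adjusted p was 0.165 for Cacna2d3, 0.0513 for Kcnip1, 0.258 for Kcnh1, 0.283 for Kcna1 and 0.125 for Cacna2d2. Without library 2 it was 0.0585 for Kcnab1, 0.0658 for Kcnh1 and 0.12 for Kcna1, and Kcnh1 and Kcna1 also failed without library 1 (0.06 and 0.0762) or 3 (0.184 and 0.0528).

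Adhesion and guidance genes gave 6 rises and 8 falls among 55 tested (median log2 difference 0.02), where 3.94% of all genes tested passed. Nrp1, a semaphorin receptor gene, was at 227 ± 78.2 against 119 ± 39.9 CPM (0.91, adjusted p = 0.000468), and Cdh8, a cadherin gene that overlaps an opposite-strand exon, was at 143 ± 23.5 against 71.3 ± 17.4 CPM (1.00). Pcdh17, a protocadherin gene, was at 116.5 ± 40.7 against 431 ± 54.8 CPM (-1.85, SE 0.17, adjusted p = 2.30e-11). Further falls were Cntnap4 (2 UMIs), Nxph1 (-2.41), Robo2, a Slit receptor gene (-2.27), Epha4 (-1.81), Cdh13 (-1.27) and Pcdh9 (-1.20), and Epha7 with 1 UMI. Calls of Efna5, Tenm3, Lrrtm3, Pcdh7 and Epha7 were lost without library 3 (adjusted p = 0.152, 0.259, 0.0664, 0.187 and 0.110). Without library 4 those of Tenm3, Lrrtm3 and Epha7 were lost (0.0733, 0.195 and 0.148), without library 1 those of Lrrtm3 and Epha7 (0.0924 and 0.0680), and without library 2 that of Pcdh7 (0.0562).

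Of 14 calcium-binding protein genes, Calb2 was higher and 5 were lower, where 3.94% of all genes tested passed. Necab1, which overlaps an opposite-strand exon, had 1 UMI (66.8-fold lower, 12.0 to 2641). Nrgn, the neurogranin gene, was at 231 ± 63.7 against 521 ± 39.1 CPM, and Pcp4 at 402 ± 164 against 846 ± 202 CPM. Rcn1 fell by 1.23 on the log2 scale, which did not pass without library 1 or 3 (adjusted p = 0.156 and 0.134). Among 8 immediate early genes, Fos was at 45, 41.7, 19.7 and 18.0 CPM against 33.5, 70.7, 137 and 108 CPM, lower in 3 of 4 libraries. It had an adjusted p of 0.0174, 0.271 without library 3 and 0.291 without library 4, and Jun, Junb, Jund, Egr1 and 3 further genes did not pass.

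**Figure D3:**
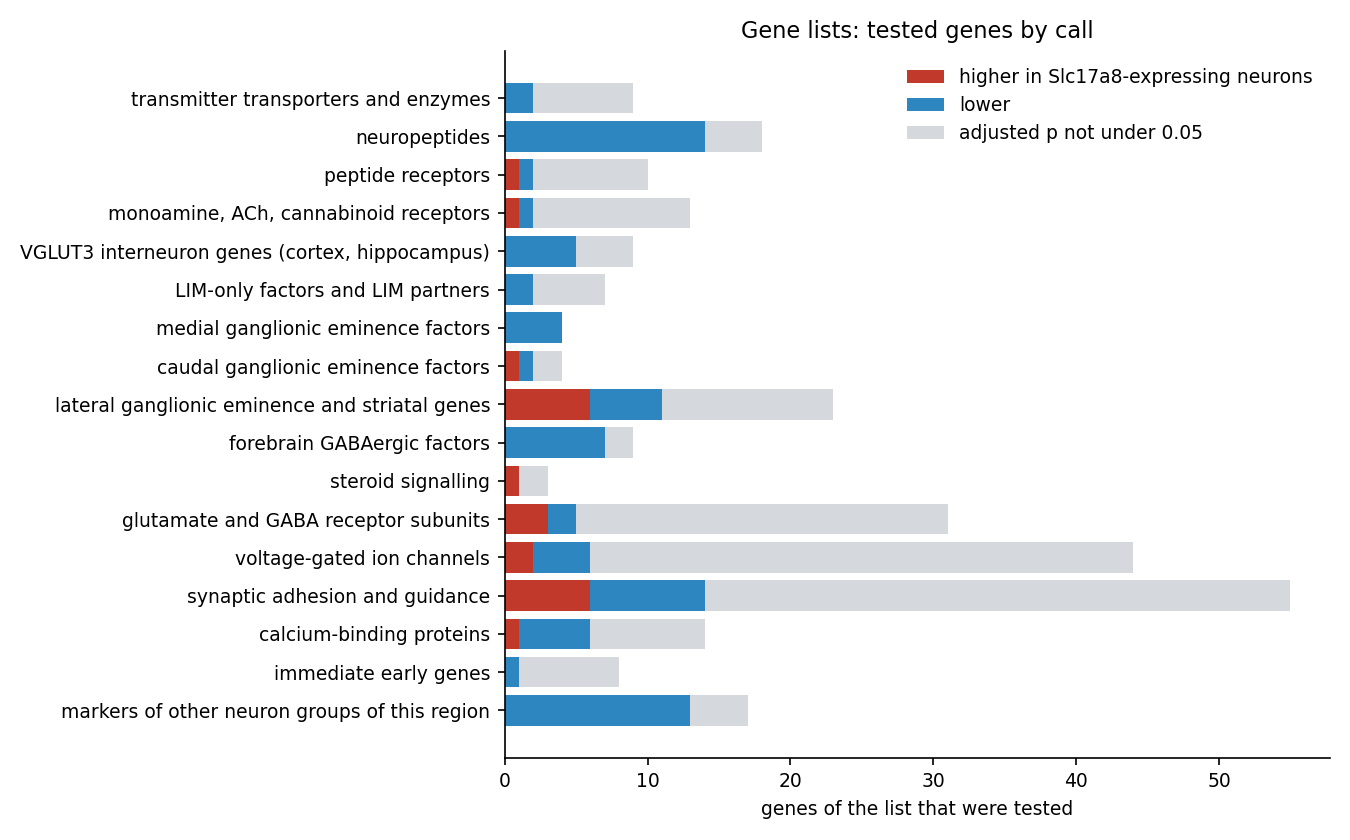
Number of tested genes (horizontal axis) in each gene list that were higher (red) or lower (blue) in Slc17a8-expressing GABAergic neurons or had an adjusted p not under 0.05 (grey). Falls fill 14 of 18 tested genes of the neuropeptide list and 4 of 4 tested medial ganglionic eminence factors, and rises reach 6 in 2 of the lists. Genes at 0 in Slc17a8-expressing neurons could only come out lower. The list of markers of other neuron groups was drawn up with earlier results of these libraries known, so its bar is a description. Over all genes tested, 1.63% were higher and 2.31% lower.

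Within the Slc17a8 neurons, peptide content was uneven. An Nts UMI was found in 63 of the 101 cells, in 15 of 18, 16 of 34, 11 of 17 and 21 of 32 cells of libraries 1 to 4. A Penk UMI was found in 33 cells. In 23 cells both were detected, in 40 only Nts, in 10 only Penk and in 28 neither. Penk was concentrated, with 68.8% of its 352 UMIs in 10 cells, against 45.3% for Nts, 54.1% for Calb2 and 28.1% for Lmo4. Cells without an Nts UMI were not the shallower ones, with a median of 4352.5 UMIs against 3948 in cells with one. In cells with an Nts UMI the summed level of Penk was 905 CPM and that of Calb2 687 CPM, and in cells without one 517 and 528 CPM. These pooled directions did not hold in every library. In library 2, Penk was at 330 CPM with Nts and 951 CPM without, and in library 4 Calb2 was at 522 CPM with Nts and 807 CPM without. The 10 cells with Penk and no Nts were 7 from library 2 and 3 from library 4. Only those 2 libraries had 10 cells with and 10 without Nts, so no test was made.

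At a fixed draw of 1000 UMIs per cell, the expected share of Slc17a8 neurons with an Nts UMI was 48.4% ± 12.7 (SD, n = 4), against 9.33% ± 2.66 of other GABAergic neurons and 2.177% ± 1.54 of non-neuronal cells, which serve as the background. Lmo4 gave 63.0% ± 3.62, 16.2% ± 0.34 and 6.82% ± 1.39, and Calb2 29.9% ± 5.11, 10.03% ± 1.17 and 0.669% ± 0.731. For Penk the shares were 24.4% ± 8.30, 22.5% ± 2.98 and 3.57% ± 1.59. Shallower cells were left out, namely 2 Slc17a8 neurons and 271 other GABAergic neurons, and 1047 of 1750 non-neuronal cells remained. Unthinned, 62.4% of Slc17a8 neurons had an Nts UMI, 94.1% Lmo4, 51.5% Calb2 and 32.7% Penk, against 14.2%, 35.4%, 21.7% and 30.7% of the others, at median depths of 4203 and 3318 UMIs. In non-neuronal cells, at a median of 1149 UMIs, these shares were 2.34%, 9.54%, 1.71% and 3.77%.

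**Figure D4:**
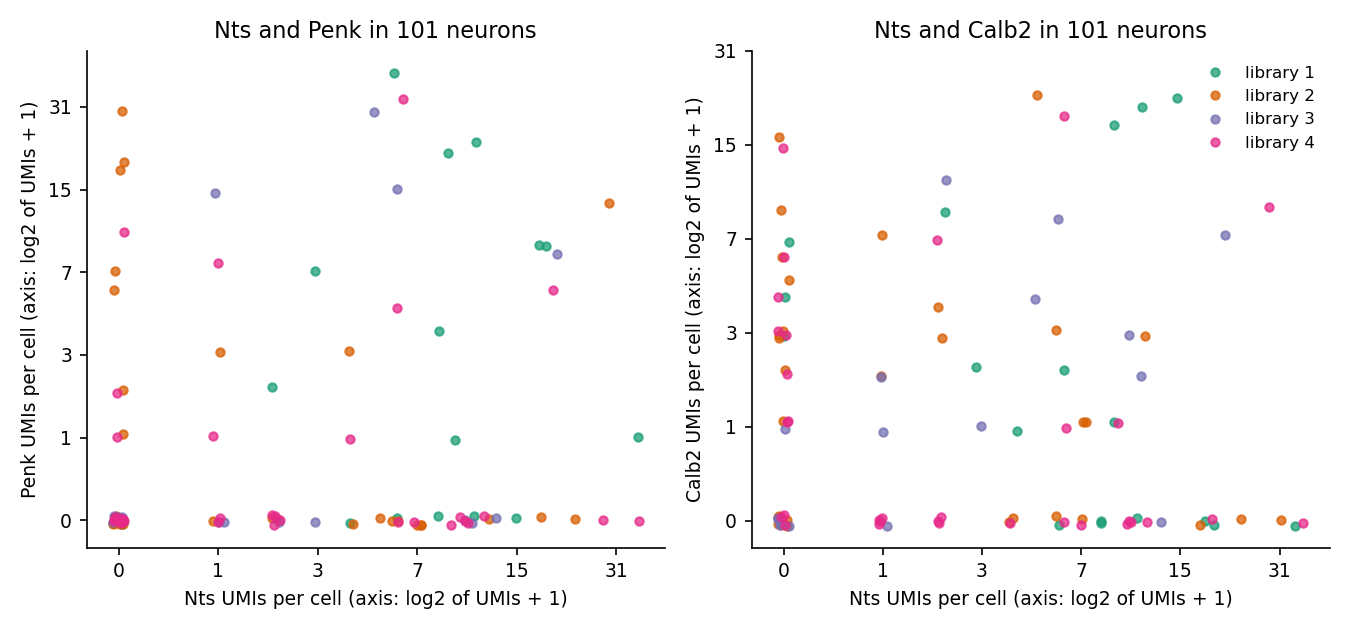
Nts UMIs (horizontal axis) against Penk UMIs (left) and Calb2 UMIs (right) in each of the 101 Slc17a8-expressing GABAergic neurons, on axes of log2 of UMIs + 1 with a small jitter, coloured by library. Cells lie along both axes and between them, with 23 cells holding both Nts and Penk UMIs and 31 both Nts and Calb2.

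To see whether the cells lie together when the gate genes are left out, all GABAergic neurons were clustered without Slc17a8, A730046J19Rik, Prok2 and the mitochondrial genes. At Leiden resolution 1, a single cluster of 178 cells held 91 of the 101 Slc17a8 neurons (90.1%), and 7 others fell in a cluster with a median of 976 UMIs. The share was 92.1% at resolution 0.5 and 91.1% at resolution 2. Since these clusters were built from the same cells, their leading genes are a description. After Slc17a8, A730046J19Rik and Lmo4, they were Nts, Vcan, Tshz3, Pbx3, Calb2, Gpr50 and Zfp503. In 76 cells of the cluster no Slc17a8 UMI was found. Set beside the other clusters, Slc17a8 neurons had the highest mean level of Lmo4, Nts, Oprk1, Tshz3 and Glra2. For Nts, Oprk1 and Glra2 the next class lay within the spread over libraries. Nts was at 1184 ± 422 against 884 ± 358 CPM in the remaining cells of the same cluster. Oprk1 was at 117 ± 52.9 CPM against 90.6 ± 30.4 CPM in the cluster led by Prox1 and Aldh3b2. Glra2 was at 227 ± 33.4 CPM against 169 ± 86.7 CPM in the cluster led by Tshz1 and Foxp2. That last cluster had more Pbx3 (362 ± 135 CPM) and Meis2 (2145 ± 386 CPM), and the one led by Ppp1r1b and Crym more Drd1a (161 ± 22.7 CPM) and Penk (4029 ± 1158 CPM). Zfp503 was likewise within the spread, with 95.9 ± 30.9 CPM in Slc17a8 neurons and 95.5 ± 32.6 CPM in the cluster led by Crh and Fosb. So was Vcan, at 84.5 ± 62.6 CPM against 76.8 ± 65.0 CPM in the remaining cells of the main cluster. Calb2 was at 617 ± 163 CPM, below the 1151 CPM of the cluster led by Slc17a6 and Nrn1. Gabrq was at 186 ± 10.9 CPM, against 192 CPM in the cluster led by Avp and Gal. The values of these last clusters came from 1 library.

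**Figure D5:**
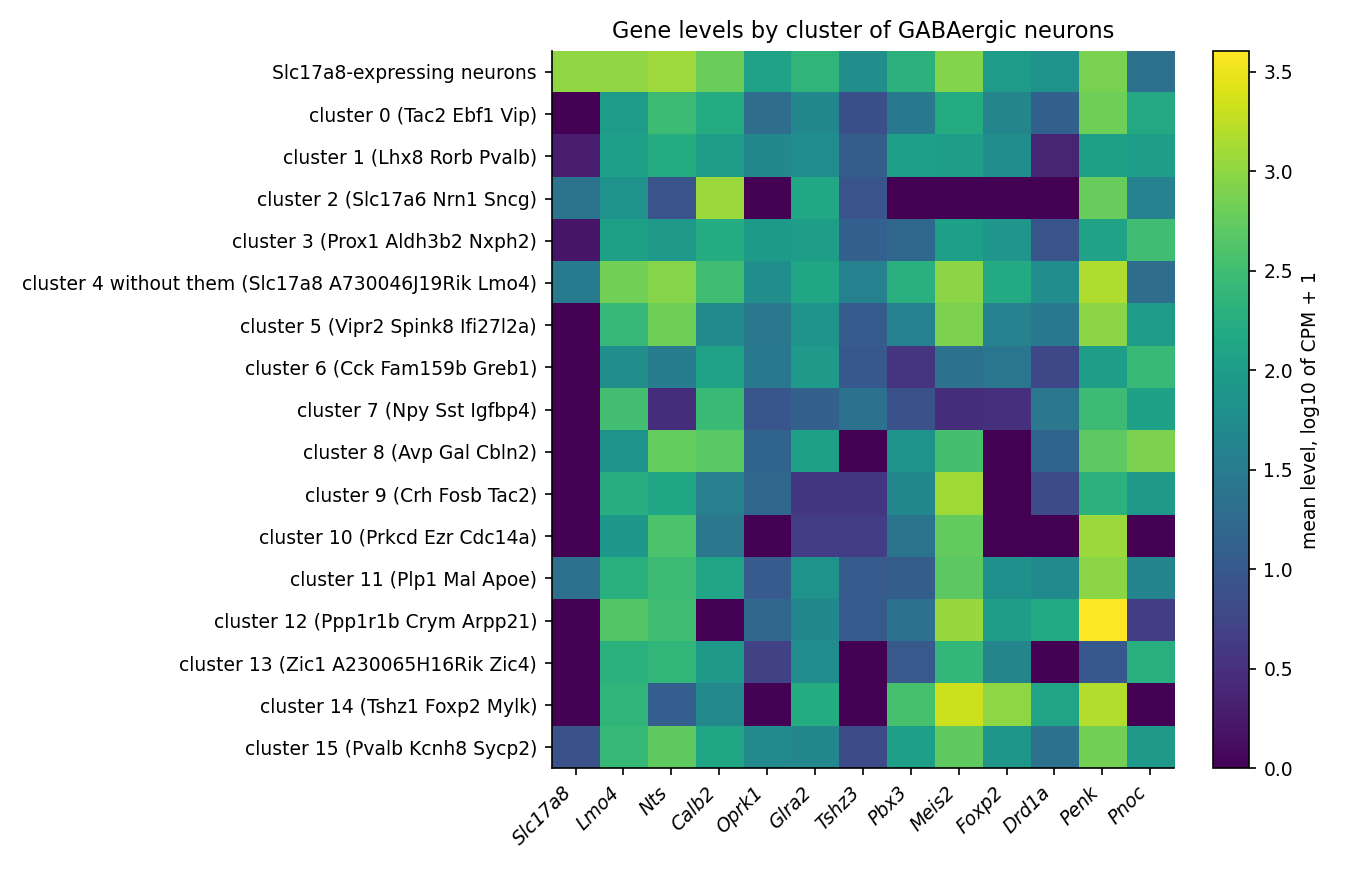
Mean level of 13 genes (colour, log10 of CPM + 1) in Slc17a8-expressing GABAergic neurons (top row) and in each cluster of the remaining GABAergic neurons, named by number and 3 leading genes. The remaining cells of cluster 4 have the next highest mean of Lmo4 (681 CPM) and Nts (884 CPM), and the clusters led by Ppp1r1b or by Tshz1 exceed the top row in Penk.

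The cells of that cluster that carried none of the 3 gate genes were then compared with the Slc17a8 neurons beside them, 61 against 91 cells, with medians of 3508 and 4325 UMIs. This comparison was added after the data had been seen. Of 1871 genes tested with the same edgeR model, 5 passed (0.267%), and 136 had an unadjusted p under 0.05. Calb2 was at 633 ± 199 CPM in Slc17a8 neurons and 264 ± 182 CPM in their cluster neighbours (log2 difference 1.30, SE 0.25, adjusted p = 0.0136, higher in 4 of 4 libraries). Rab3c, a synaptic vesicle GTPase gene, was at 1221 ± 254 against 700.3 ± 141 CPM (0.78, adjusted p = 0.0172), and Arhgap6, a GTPase-activating protein gene, at 283 ± 60.1 against 104 ± 27.0 CPM (1.43, adjusted p = 0.0172). Penk was lower, at 734 ± 242 against 1686 ± 568 CPM (-1.18, SE 0.20, adjusted p = 0.00235), in 3 of 4 libraries, the exception being library 1 with 1094 against 1001 CPM. Crh was lower in 4 of 4 libraries, at 40.1 ± 80.2 against 329 ± 188 CPM (-3.06, adjusted p = 0.00142). Without library 2 none of the 5 passed, and DESeq2 called none. The listed markers, given without a test, were at 1056 ± 131 against 555 ± 177 CPM for Lmo4 and 1195 ± 397 against 781 ± 588 CPM for Nts. Meis2 (0.01, adjusted p = 0.998), Pbx3 (0.39, 0.860) and Glra2 (0.83, 0.401) did not pass in this comparison. Oprk1, Zfp503, Tshz3, Vcan, Barx2 and Drd1a had too few counts here and were not tested. Barx2 was at 49.4 ± 28.3 against 3.86 ± 7.71 CPM, Oprk1 at 120 ± 51.7 against 65.4 ± 42.7 CPM and Vcan at 66.9 ± 37.3 against 63.6 ± 76.2 CPM. The share of 0.267% is thus over a smaller set of genes than the 3.94% above.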

How the data were processed

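Gene expression was measured by Drop-seq in 4 libraries of pooled mouse BNST punches, all of a single group. The deposited tables hold raw UMI counts per gene and barcode, per the file headers and values. The libraries hold 2640399 to 5652342 UMIs. The submitters' processing notes name bcl2fastq 2.18.0.12, STAR 2.4.2a, Picard 2.2.4 and mm10 (GRCm38). Annotation, counting strand and the rule for listed barcodes are not given in the sources used here, so overlapping genes on opposite strands cannot be told apart. Positions come from GENCODE release M21 and promoters from RefSeq.

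The members, gene lists and tests were chosen with earlier results of these data known. Class sums per library (at least 10 cells) entered the quasi-likelihood F-test of edgeR 4.0.16 (R 4.3.3) after filterByExpr and TMM scaling, with library as block, since both sums of a library share its mice. DESeq2 1.42.0 was an alternative. The 13 genes of the rule and markers and the mitochondrial genes got no p. Named genes were the rule and marker genes, list genes past the threshold, the 12 largest rises and falls, Pnoc, Oprl1 and receptors of the marker peptides; some of these are not reported here. Rab3c and Arhgap6 were named because the added comparison called them, after their values were seen, and Penk, Slc17a7 and Drd2 likewise as singled-out genes. Clusters used scanpy 1.11.5 (2000 variable genes, 30 components). Fold limits for 0 counts use 3 UMIs over the summed cells and take no account of how the UMIs are spread over cells. Intervals are exact at 95% and cover counting error only. On simulated counts of 8605 genes edgeR recovered 44% of genes changed 2-fold and 80% of those changed 4-fold, with 3.88% wrong calls. For the comparison within the cluster (1892 genes) it recovered 75% and 99%, with 5.43% wrong calls, above the nominal 5%. Each simulation changed 200 genes and covered only genes past the low-count filter. The figures of the 2 comparisons are therefore over different sets of genes and do not extend to genes filtered out.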

Additional observations from a re-analysis of the deposited data

Results flagged for a closer look

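Values of 67 measures in Slc17a8 neurons were searched for a library far from the other 3, and 5 stood apart, where about 1 in 20 (3.35) would by chance. In library 3 the summed oligodendrocyte markers were at 3865 CPM (167 to 549 CPM in the others) and oligodendrocyte precursor markers at 59.0 CPM (0 to 6.96 CPM). Glutamatergic neuron markers were at 98.3 CPM there and at 0 in the others, all of it 10 Tcf7l2 UMIs from the cell that also held 365 oligodendrocyte UMIs. Lmo4 was highest in library 2, at 1169 CPM (980 to 991 CPM in the others). Crh was at 153 CPM in library 1 (0 to 20.9 CPM in the others).

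Barcodes that failed the quality filters were used in no comparison. They held 39 Slc17a8 UMIs, in 34 of 5961 barcodes with a median of 198 UMIs, 32 of which had under 400 genes.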

How the results depend on the processing

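Of 84 named genes that passed, 37 passed under each of the 20 alternatives that tested them, among them Calb2, Meis2, Oprk1, Glra2, Gabrq, Pnoc and Sst, and 35 failed without some library. The main counts were 140 higher and 198 lower. They were 70 and 76 with DESeq2, 44 and 104 with no replicate block, 33 and 55 with cells thinned to 2000 UMIs (5263 genes tested), 53 and 84 with a mitochondrial limit of 5% (3 libraries), and 68 and 120 with cells of at most 1 oligodendrocyte UMI, added after seeing the data. No low-count filter gave 303 lower. Leaving out a library gave 64 to 95 higher and 99 to 154 lower. The remaining alternatives stayed within 1.5 times of these counts. For the comparison within the cluster, main counts of 3 higher and 2 lower became 0 and 0 with DESeq2, 7 and 7 without the low-count filter, 0 higher with no replicate block, and 0 to 6 higher and 0 to 4 lower without a library.

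The share of Slc17a8 neurons stayed within 1 SD of 4.65% (3.42 to 5.47%). Direction turned for Slc17a6 with any Slc17a8 UMI (log2 0.97, adjusted p = 0.379), for Ntsr1 without library 4 (0.17, range without a library -0.66 to 0.17) and for Penk at a 5% mitochondrial limit (-0.62), at least 3 gate UMIs (-0.052), thinned cells (-0.22), without library 1 (-0.16, range -0.16 to 0.38) and with at most 1 oligodendrocyte UMI (-0.64). The causes were not tested. The comparison by Nts UMI was not run, since it needed 3 libraries with 10 cells of each kind and 2 had them. With 101 cells, genes under about 6.42 CPM could not be told from 0.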
